A study of Rattus norvegicus with 3 samples.

Results

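The genes described here are 40 astrocyte genes, chosen by symbol, of which 24 are homeostatic (high in resting astrocytes) and 16 are reactive (induced in astrocytes by injury or inflammation). Their values were taken from a table of 12758 gene symbols in the RNA of the supernatant of digested rat spinal cord. Of the 40 genes, 33 have an entry in the table, 20 homeostatic and 13 reactive. CPE, HEPACAM, DIO2 and GPC5 among the homeostatic genes and AMIGO2, CD109 and TGM1 among the reactive genes have no entry, and no value is given for them.

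The animals were female Sprague Dawley rats, 3 months old. In both groups a laminectomy was made at T9. The No-SCI group had the laminectomy alone, and the SCI group (spinal cord injury) also received a contusion from an impactor. Tissue just rostral to the lesion, at T8, was taken 24 h later, digested with a cold-active protease, and the cells were spun down so that the supernatant, meant to be enriched for axons, could be sequenced. By the labels the No-SCI group has 2 libraries and the SCI group 1, whereas the methods state 2 animals per condition. The table gives 1 FPKM value per group and gene (sequenced fragments scaled to transcript length and library size), so no spread between animals, SD or test can be given, and every difference below has no replicate check. In such bulk RNA, fewer astrocyte fragments in the supernatant and less of a transcript per fragment cannot be told apart.

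Astrocytes supply neurons with lipid and metabolites, clear ions and transmitters from the extracellular space and wrap blood vessels with endfeet. Their processes hold mRNAs of their own, so RNA outside cell bodies can include theirs. After injury astrocytes become reactive: they upregulate intermediate filaments and cytokine receptors and secrete acute phase proteins, and those next to a lesion build the border of the scar. Expression studies in mouse brain separated reactive genes shared by different injuries from a class induced by endotoxin and a class induced by ischemia.

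The 20 listed homeostatic genes were mostly lower after SCI, and the 13 listed reactive genes differed in both directions. Of the homeostatic genes 18 were lower and 2, APOE and HOPX, were higher. A fold of 2 or more was used as the threshold for a call. By that threshold 9 of the 20 (45%) were lower and 0 were higher, whereas 12.1% of all 12758 symbols were lower and 7.93% were higher. Of all symbols 56.4% were lower by any amount, against 90% of the homeostatic genes. Of the 13 reactive genes 2 (15.4%) were lower and 2 (15.4%) were higher by 2-fold, shares that rest on 2 genes each. Of the 2 that were higher, STEAP4 has a direction set by which genes the table lists, as given below, which leaves SPHK1. The log2 ratios (SCI over No-SCI) had a median of −0.85 over the homeostatic genes, 0.01 over the reactive genes and −0.12 over all symbols. With the median of all symbols set to 0, 9.59% of them were lower and 9.53% higher by 2-fold. This raised every log2 ratio by 0.12, too little to change the sign of any of the 33 genes. The distance between the 2 groups of genes depends on values written with more than 6 digits, which may be sums over several entries of a symbol. Without them 13 homeostatic and 7 reactive genes remain, and both medians were −0.85, that of the homeostatic genes being GPR37L1 and that of the reactive genes LCN2.

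**Figure D1:**
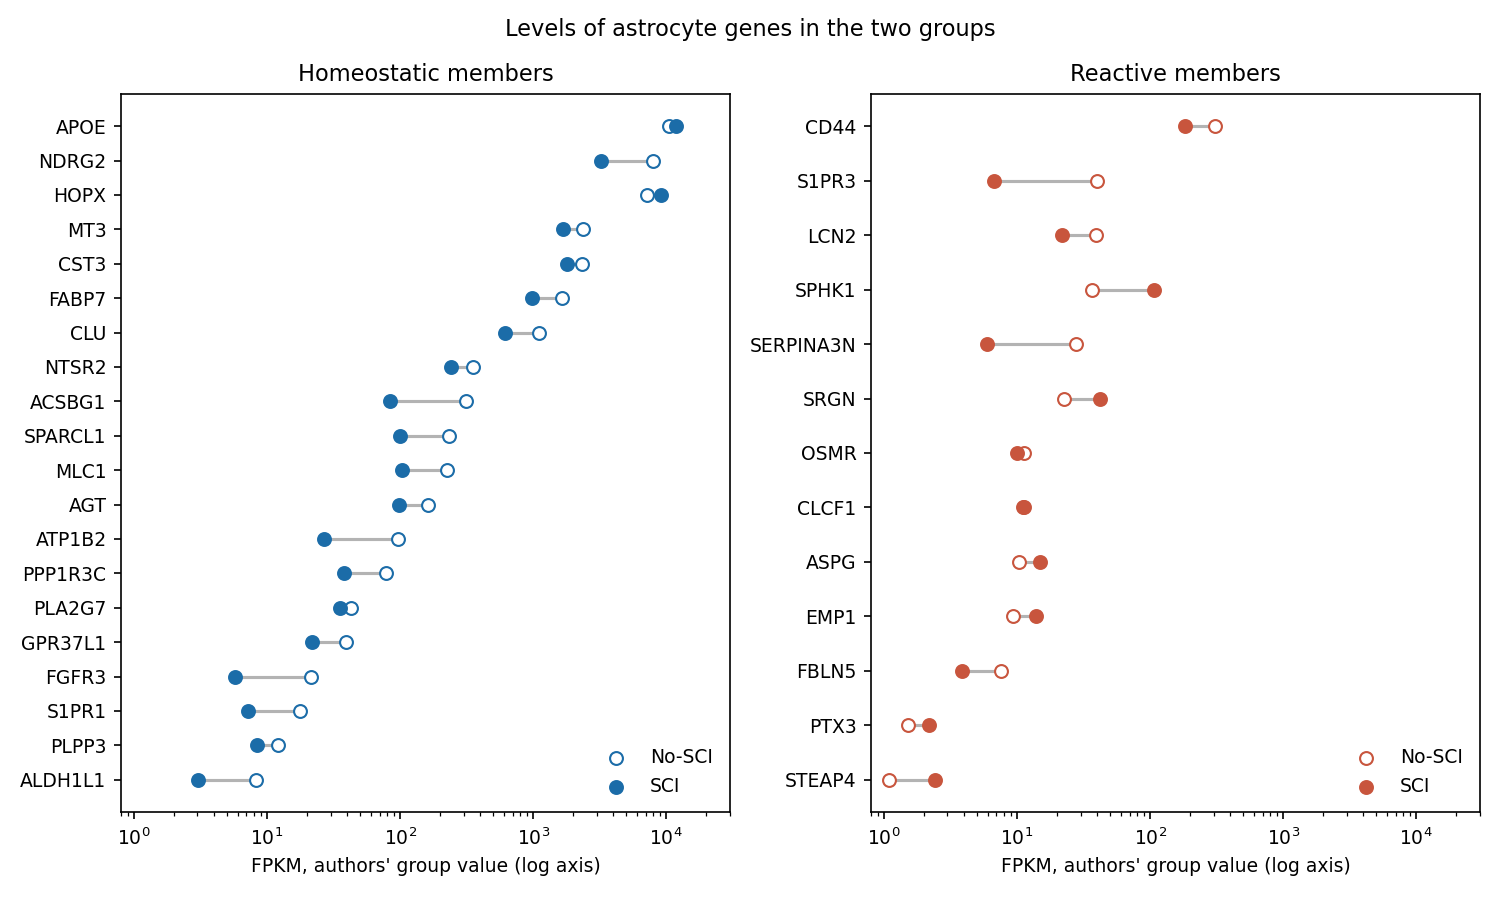
Deposited FPKM values of the 33 listed astrocyte genes on a log axis, with open circles for No-SCI and filled circles for SCI, 1 value per group. The homeostatic genes in the left panel run from 8.19 FPKM (ALDH1L1) to 10448 FPKM (APOE) in No-SCI, and their filled circles lie left of the open ones except for APOE and HOPX, whereas the reactive genes in the right panel lie on both sides, with the circles of CLCF1 on top of each other.

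The most abundant homeostatic gene was APOE, which encodes the main lipid carrier of the central nervous system. APOE had 10448 FPKM in No-SCI and 11804 FPKM in the SCI group, ranks 8 and 7 among all symbols, a log2 ratio of 0.18. CLU, which encodes clusterin, another lipoprotein component and extracellular chaperone, was lower after SCI, with 1103 FPKM with laminectomy alone and 613 FPKM after SCI. The level of APOE was 9.47 times that of CLU in No-SCI and 19.3 times after SCI. These lipoprotein genes thus differed in their ratios by 1.02 on the log2 scale.

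Other secreted proteins of the group were lower to different degrees. CST3, which encodes cystatin C, an inhibitor of cysteine cathepsins, had 2346 FPKM in No-SCI against 1795 FPKM in SCI, a log2 ratio of −0.39. AGT, the precursor of the angiotensin peptides, had 162 FPKM in No-SCI and 98.0 FPKM in the SCI group, a log2 ratio of −0.73. SPARCL1, which encodes hevin, a matrix protein that promotes synapse formation, passed the threshold, with 232 FPKM with laminectomy alone and 100.04 FPKM after SCI, a log2 ratio of −1.21. PLA2G7, which encodes the secreted enzyme that inactivates platelet-activating factor, differed least among the homeostatic genes that were lower, with 42.7 FPKM in No-SCI against 35.6 FPKM in SCI.

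Among receptors and other membrane proteins of the homeostatic group the largest differences were those of FGFR3 and ATP1B2. FGFR3, a fibroblast growth factor receptor, had 21.4 FPKM in No-SCI and 5.74 FPKM in the SCI group, a log2 ratio of −1.90 (3.73-fold lower). ATP1B2, the beta subunit of the sodium-potassium pump that also serves as a glial adhesion molecule, had 96.3 FPKM with laminectomy alone and 27.0 FPKM after SCI, a log2 ratio of −1.84. MLC1, an endfoot membrane protein, had 224 FPKM in No-SCI against 103 FPKM in SCI, a log2 ratio of −1.12. HEPACAM, the adhesion molecule that partners MLC1, has no entry. S1PR1, a receptor for the lipid mediator sphingosine 1-phosphate, had 17.7 FPKM in No-SCI and 7.19 FPKM in the SCI group, a log2 ratio of −1.30. Below the threshold, GPR37L1, a glial G protein-coupled receptor, had 39.4 FPKM with laminectomy alone and 21.8 FPKM after SCI. NTSR2, a neurotensin receptor, had 354 FPKM in No-SCI against 241 FPKM in SCI. All 6 of these listed membrane protein genes, which are among the 20 counted above, were lower, 4 of them by 2-fold or more. Of all symbols 56.4% were lower by any amount and 12.1% by 2-fold.

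Genes of lipid, folate and glycogen metabolism were lower as well. ACSBG1, an acyl-CoA synthetase for long-chain fatty acids, had 313 FPKM in No-SCI and 84.1 FPKM in the SCI group, a log2 ratio of −1.90 (3.72-fold lower). ALDH1L1, a folate enzyme widely used to mark astrocytes, had 8.19 FPKM with laminectomy alone and 3.02 FPKM after SCI, a log2 ratio of −1.44. It was the lowest of the homeostatic genes in both groups. PPP1R3C, which targets protein phosphatase 1 to glycogen, had 78.2 FPKM in No-SCI against 37.95 FPKM in SCI. Its log2 ratio of −1.04 lies just past the threshold, and the ratio no longer passes it when the groups are scaled to the same median, upper quartile or total. FABP7, a fatty acid-binding protein of radial glia and astrocytes, had 1636 FPKM in No-SCI and 983 FPKM in the SCI group, a log2 ratio of −0.73. PLPP3, a phosphatase that removes the phosphate of lysophosphatidic acid and sphingosine 1-phosphate, had 12.1 FPKM with laminectomy alone and 8.34 FPKM after SCI, a log2 ratio of −0.53.

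NDRG2, a cytoplasmic protein of mature astrocytes, and HOPX, a homeodomain protein that does not bind DNA itself, had similar levels in No-SCI and different levels in SCI. NDRG2 had 8001 FPKM in No-SCI against 3228 FPKM in SCI, a log2 ratio of −1.31, and went from rank 10 to rank 37 of all symbols. HOPX had 7161 FPKM in No-SCI and 9177 FPKM in the SCI group, a log2 ratio of 0.36, and went from rank 12 to rank 9. The ratio of HOPX to NDRG2 was 0.895 in No-SCI and 2.84 after SCI. MT3, the metallothionein of brain, had 2377 FPKM with laminectomy alone and 1675 FPKM after SCI, a log2 ratio of −0.50.

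**Figure D2:**
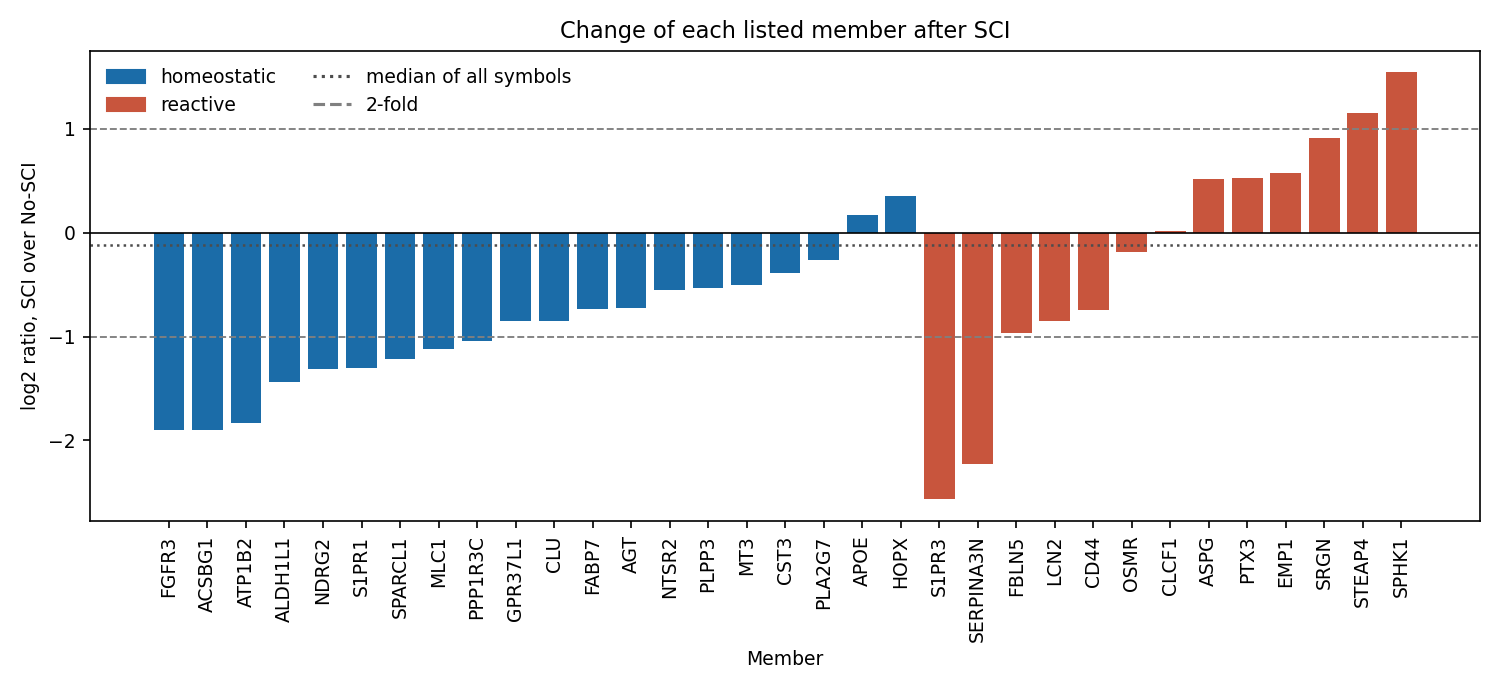
Log2 ratio (SCI over No-SCI) of each listed gene, homeostatic genes in blue and reactive genes in red, each sorted from lowest to highest. The dashed lines mark a fold of 2 and the dotted line the median of all symbols (−0.12). In blue, 9 bars pass the lower line and none the upper one, and in red S1PR3 and SERPINA3N pass the lower line while STEAP4 and SPHK1 pass the upper one.

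Of the 9 homeostatic genes lower by 2-fold, 8 had less than 1000 FPKM in No-SCI. Of the 7 with at least 1000 FPKM in No-SCI, 1 was lower by 2-fold (14.3%), NDRG2, and the median log2 ratio was −0.50. Of the 5 between 100 and 1000 FPKM, 3 were lower by 2-fold, and of the 7 between 10 and 100 FPKM, 4 were. ALDH1L1 was the only one below 10 FPKM. Among all symbols the share lower by 2-fold was 12.7% at 1000 FPKM or more, 12.4% between 100 and 1000 FPKM, 13.8% between 10 and 100 FPKM, and 9.58% below 10 FPKM. The summed level of the 20 genes was 34673 FPKM in No-SCI against 30048 FPKM in SCI, in which APOE alone accounts for a large part. Without APOE the sum was 24225 FPKM in No-SCI and 18244 FPKM in the SCI group.

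The reactive genes were far less abundant, with a median of 11.3 FPKM in both groups, beside 228 FPKM with laminectomy alone and 99.0 FPKM after SCI for the homeostatic genes. Of the 7 chosen genes of the class shared by different injuries, 5 were lower and 2 higher, and their median log2 ratio was −0.75. The classes also hold genes that were not chosen, so counts by class describe the chosen genes alone. S1PR3, another sphingosine 1-phosphate receptor, had 40.1 FPKM in No-SCI against 6.76 FPKM in SCI, a log2 ratio of −2.57 (5.93-fold lower), the lowest ratio of all 33 genes. SERPINA3N, a secreted protease inhibitor of the acute phase, had 27.7 FPKM in No-SCI and 5.91 FPKM in the SCI group, a log2 ratio of −2.23 (4.68-fold lower). Both genes were thus lower by more than any homeostatic gene.

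The other chosen genes of this class were nearer to their No-SCI levels. LCN2, the iron siderophore-binding lipocalin, had 39.4 FPKM with laminectomy alone and 21.8 FPKM after SCI, a log2 ratio of −0.85, both values within 0.1% of those of GPR37L1. CD44, the hyaluronan receptor, was the most abundant reactive gene, with 309 FPKM in No-SCI against 184 FPKM in SCI, a log2 ratio of −0.75. OSMR, the oncostatin M receptor, had 11.3 FPKM in No-SCI and 9.91 FPKM in the SCI group. None of these 3 reached the threshold, and all were lower. ASPG, an asparaginase, was higher, with 10.4 FPKM with laminectomy alone and 14.9 FPKM after SCI, a log2 ratio of 0.52.

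STEAP4, a metalloreductase, had 1.08 FPKM in No-SCI against 2.41 FPKM in SCI, a log2 ratio of 1.16. Its direction is set by which genes the table lists. No value in the table lies below 1, the larger of a symbol's values is never below 1.41, and all 41 symbols with less than 1.1 FPKM in No-SCI are higher after SCI. With a pseudocount of 1 the log2 ratio of STEAP4 was 0.71, below the threshold.

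All 4 chosen genes of the ischemia class with an entry were higher, and their median log2 ratio was 0.55, although CLCF1 was so by 0.01. SPHK1, the kinase that makes sphingosine 1-phosphate, had 36.8 FPKM in No-SCI and 108 FPKM in the SCI group, a log2 ratio of 1.55 (2.92-fold higher). This ratio was the highest of the 33 genes, and SPHK1 stood at percentile 67.5 of all symbols in No-SCI and at percentile 86.1 in SCI. EMP1, a membrane protein of the PMP22 family, had 9.29 FPKM with laminectomy alone and 13.8 FPKM after SCI, a log2 ratio of 0.57. PTX3, a secreted pentraxin, had 1.52 FPKM in No-SCI against 2.18 FPKM in SCI, where the table also favours higher values, since 115 of 157 symbols with 1.4 to 1.6 FPKM in No-SCI are higher after SCI. CLCF1, a cytokine of the CNTF family, had 11.1 FPKM in No-SCI and 11.3 FPKM in the SCI group.

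The 2 chosen genes of the endotoxin class with an entry went opposite ways. SRGN, the proteoglycan of secretory granules, had 22.4 FPKM with laminectomy alone and 42.2 FPKM after SCI, a log2 ratio of 0.92, which passes the threshold when the groups are scaled to the same median or upper quartile. FBLN5, an elastic fibre protein, had 7.53 FPKM in No-SCI against 3.85 FPKM in SCI, a log2 ratio of −0.97. Neither gene is confined to astrocytes: SRGN is also made by leukocytes and FBLN5 by mural cells and fibroblasts.

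**Figure D3:**
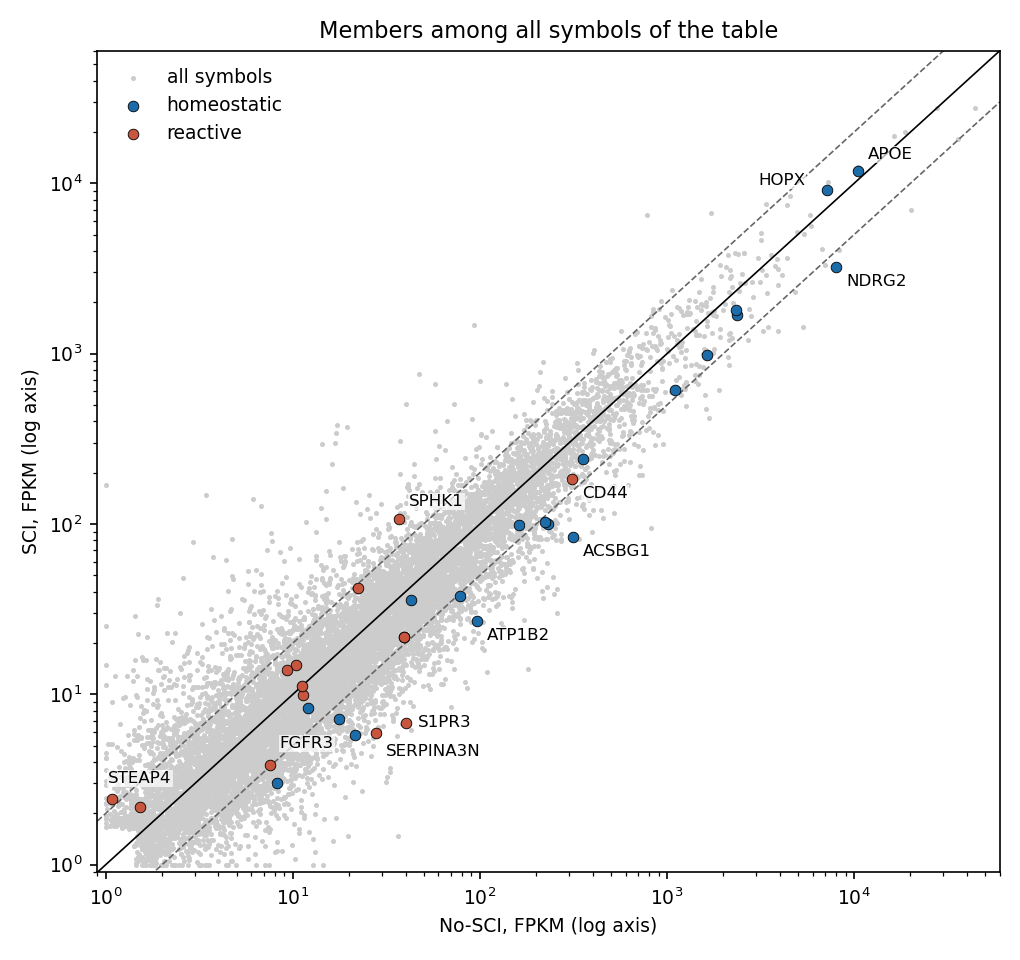
SCI against No-SCI level of all 12758 symbols (grey) on log axes, with the listed homeostatic genes in blue and reactive genes in red. The solid line marks equal levels and the dashed lines a fold of 2. APOE and HOPX lie above the solid line at the upper end, ACSBG1, ATP1B2 and FGFR3 below the lower dashed line, and STEAP4 in the corner where the table holds no symbol with low values in both groups.

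Members of both groups belong to the sphingosine 1-phosphate pathway, in which SPHK1 makes the ligand, S1PR1 and S1PR3 receive it and PLPP3 degrades it. Of 14 genes of this pathway 11 are listed, 9 lower and 2 higher, with a median log2 ratio of −0.24. By the threshold 2 were lower, S1PR1 and S1PR3, and 1 was higher, SPHK1, which is 18.2% and 9.09% of the 11 and near the 12.1% and 7.93% of all symbols. The ratio of SPHK1 to S1PR3 was 0.918 in No-SCI and 15.9 after SCI, and that of SPHK1 to S1PR1 was 2.08 in No-SCI and 15.0 after SCI. S1PR5, the receptor of oligodendrocytes, was the most abundant of the receptors and had 299 FPKM in No-SCI and 310.03 FPKM in the SCI group. SPHK2, the other kinase, had 79.5 FPKM in No-SCI against 67.3 FPKM in SCI. S1PR1 and S1PR3 are also receptors of blood vessel cells, and of 12 endothelial genes 9 are listed, with a median log2 ratio of −0.21 and summed levels of 49.9 FPKM in No-SCI and 51.2 FPKM in the SCI group. The part of vessel cells in the receptor values was not tested.

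OSMR and CLCF1 belong to the cytokine pathway that signals through the shared receptor gp130 and STAT3, a known regulator of astrocyte reactivity. Of 18 genes of this pathway 15 are listed, 10 lower (66.7%) and 5 higher, and 56.4% of all symbols were lower. By the threshold 0 were lower and 1 was higher (6.67%), beside 12.1% and 7.93% of all symbols. IL6ST, which encodes gp130, had 38.7 FPKM in No-SCI against 25.9 FPKM in SCI. STAT3 had 37.2 FPKM in No-SCI and 29.0 FPKM in the SCI group, and SOCS3, the feedback inhibitor that STAT3 induces, had 35.9 FPKM with laminectomy alone and 67.7 FPKM after SCI. OSM, LIF and LIFR have no entry.

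Partners of APOE, MLC1 and CD44 were also listed. Of 12 genes of lipoproteins and their receptors, APOE and CLU included, 10 are listed, 7 lower (70%) and 3 higher, and 56.4% of all symbols were lower. By the threshold 0 were higher and 1 was lower (10%), near the 12.1% of all symbols. That gene was VLDLR, a receptor for APOE, with 8.37 FPKM in No-SCI against 3.76 FPKM in SCI. Of 9 genes of the endfoot complex around MLC1, 4 are listed, and DTNA, the dystrophin-associated protein dystrobrevin, had 104 FPKM in No-SCI against 26.7 FPKM in SCI, a log2 ratio of −1.96. Of 9 genes around CD44 and hyaluronan 8 are listed, 4 lower and 4 higher. Of the 8, 1 (12.5%) was lower and 2 (25%) were higher by 2-fold, beside 12.1% and 7.93% of all symbols. Among these the hyaluronidase HYAL1 had 8.69 FPKM with laminectomy alone and 3.06 FPKM after SCI, and HYAL2 had 5.10 FPKM with laminectomy alone and 12.4 FPKM after SCI. SPP1, which encodes osteopontin, a ligand of CD44 that macrophages also make, had 222 FPKM in No-SCI against 265 FPKM in SCI.

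Astrocyte genes outside the 40 were set beside them. Of a list of 30 further astrocyte genes 22 are listed, of which 20 were lower and 2 higher, with a median log2 ratio of −1.01. By the threshold 12 of the 22 (54.5%) were lower and 0 higher, beside 12.1% and 7.93% of all symbols. Among them were SOX9, a glial transcription factor, with 33.1 FPKM in No-SCI against 9.77 FPKM in SCI, and GJA1, the gap junction protein connexin 43, with 92.3 FPKM in No-SCI and 34.5 FPKM in the SCI group. GLUL, which encodes glutamine synthetase, was the most abundant of the list, with 5858 FPKM with laminectomy alone and 5624 FPKM after SCI. The highest log2 ratio of the 22 was 0.996, just below the threshold, while NFIA at −1.003 and SLC1A2 at −1.011 lay just past it. GFAP, S100B, AQP4, SLC1A3, ALDOC and KCNJ10, all defining astrocyte genes, have no entry.

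Of 26 further reactive genes 23 are listed, 14 higher and 9 lower, with a median log2 ratio of 0.50. Some of them belong to the classes above, but they were not counted by class. Of the 23, 5 (21.7%) were higher by the threshold and 2 (8.7%) were lower, beside 7.93% and 12.1% of all symbols. The intermediate filament gene VIM had 819 FPKM in No-SCI against 1674 FPKM in SCI, and NES had 89.0 FPKM in No-SCI and 217 FPKM in the SCI group. TIMP1, an inhibitor of metalloproteinases, had 208 FPKM with laminectomy alone and 780.2 FPKM after SCI. FKBP5, a target of glucocorticoids, had 7.42 FPKM in No-SCI against 37.0 FPKM in SCI. CD14, a receptor for endotoxin, had 18.1 FPKM in No-SCI and 60.9 FPKM in the SCI group. CXCL10, a chemokine induced by interferon, had 12.2 FPKM with laminectomy alone and 2.87 FPKM after SCI, and CHI3L1, a secreted chitinase-like protein, had 170 FPKM in No-SCI against 54.9 FPKM in SCI. Many of these genes are also made by macrophages, fibroblasts and vessel cells.

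**Figure D4:**
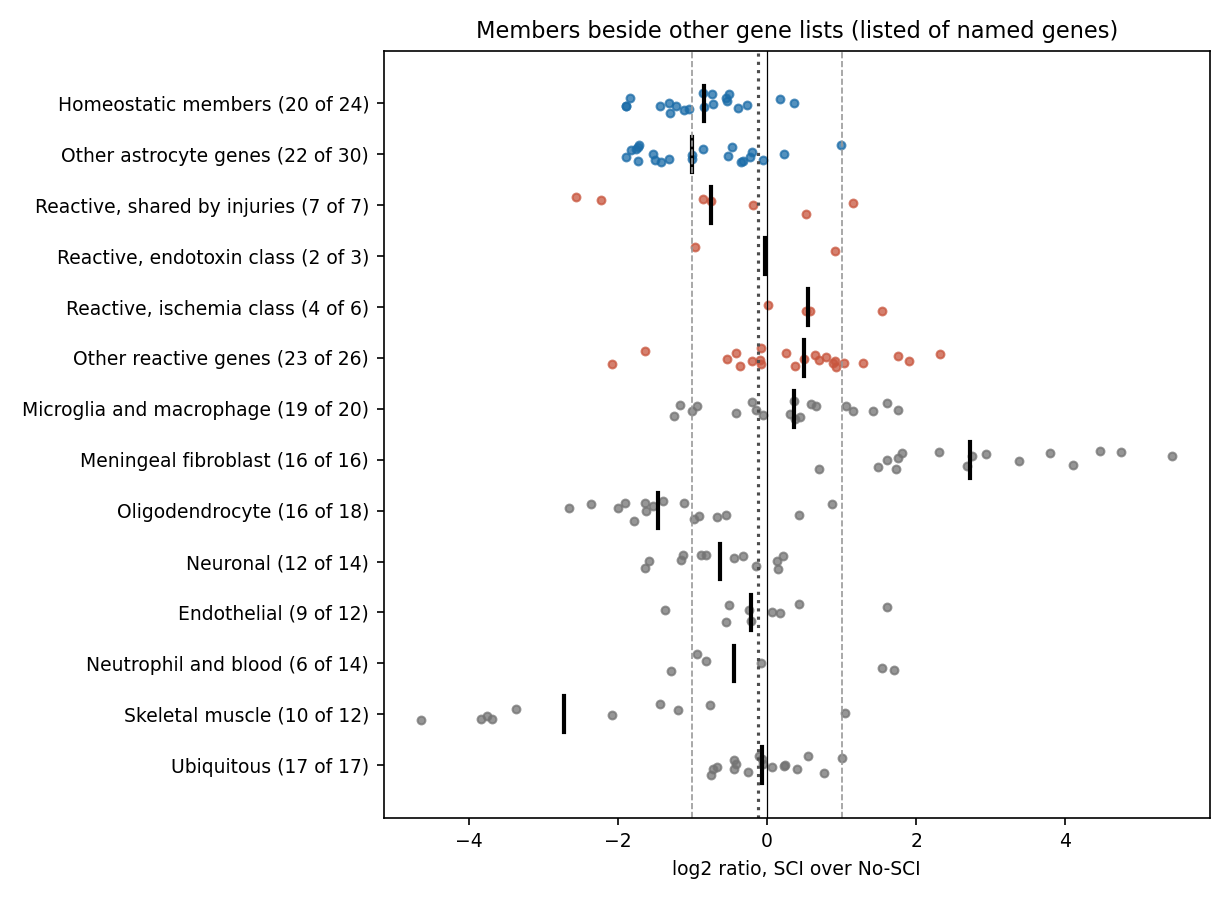
Log2 ratio (SCI over No-SCI) of each listed gene of the astrocyte lists (blue and red) and of lists for other cell types (grey), 1 dot per gene, with the median of each list as a black bar. Numbers give listed genes of genes named, the dashed lines a fold of 2 and the dotted line the median of all symbols. The homeostatic and oligodendrocyte medians lie left of the dotted line and the meningeal fibroblast median at 2.72.

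Genes of other cell types also differed between the groups. Their values stand beside those of the astrocyte genes because several of the 40 are shared with such cells. Of all symbols 12.1% were lower and 7.93% higher by 2-fold. Of 18 oligodendrocyte genes 16 are listed, 14 were lower, 10 of them by 2-fold, and their summed level was 90497 FPKM in No-SCI and 49112 FPKM in the SCI group. MBP and ENPP2 of that list have no entry. Of 14 neuronal genes 12 are listed, 4 (33.3%) lower by 2-fold and 0 higher, with a median log2 ratio of −0.63. Their summed levels were 2017 FPKM with laminectomy alone and 1852 FPKM after SCI. GAP43, the most abundant, had 1275 FPKM of the former and 1406 FPKM of the latter. All 16 meningeal fibroblast genes were higher, 15 of them by 2-fold, and their sum was 133 FPKM in No-SCI against 1203 FPKM in SCI. Of 20 microglia and macrophage genes 19 are listed, 11 higher and 8 lower, with sums of 1503 FPKM in No-SCI and 2141 FPKM in the SCI group. Of 14 neutrophil and blood genes 6 are listed, 4 lower and 2 higher, and their median log2 ratio was −0.45. By 2-fold 1 (16.7%) was lower, PPBP, and 2 (33.3%) were higher, S100A8 and S100A9. S100A8 had 32.4 FPKM in No-SCI against 94.1 FPKM in SCI, and S100A9 had 14.3 FPKM in No-SCI against 46.6 FPKM in SCI. The sums of the 6 genes were 562 FPKM in No-SCI and 618 FPKM in the SCI group. MPO, ELANE and CAMP of that list have no entry. The medians of the oligodendrocyte precursor and mural lists were both −0.03. Of 17 ubiquitous genes 0 passed the threshold in either direction, and their median log2 ratio was −0.07. The part of these cells in the values of APOE, CST3, CD44, SRGN, SPHK1 and the other genes they share with astrocytes was not tested.

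For 36 of the 40 genes RefSeq promoter windows (build GRCr8, 250 bases before to 50 after a start, 42 windows in all) were searched on both strands for letters that known regulators of reactive astrocytes bind. The palindrome of STAT factors, TTCNNNGAA, was in 4 of 16 windows of reactive genes (EMP1, SERPINA3N, SPHK1 and STEAP4), in 3 of 26 windows of homeostatic genes (ACSBG1, NTSR2 and PPP1R3C), and in 8.87% of all 33469 windows. The letters of AP-1, TGANTCA, were in 4 windows of reactive genes (ASPG, EMP1, OSMR and SPHK1), in 1 of homeostatic genes (PLA2G7) and in 7.33% of all. Those of C/EBP, TTGCNNAA, were in 3 windows of each group and in 10.6% of all, those of NF-kB, GGGNNTTCC, in 2 and 1 windows and in 5.92% of all, and those of SOX factors, ACAATGG, in 0 and 1 windows and in 3.90% of all. The windows of S1PR1 and S1PR3 held none of the 5. A match is a description of letters and no evidence of binding.

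The windows of the 3 reactive genes past the threshold that hold the STAT letters are shown, of which SPHK1 was higher and SERPINA3N lower after SCI, and the direction of STEAP4 is set by the listing of the table. Each is written 5′ to 3′ on the strand of the gene, with the letters in capitals. For SPHK1, which has 3 windows, the one with the match is given (chr10:102258725-102259024, plus strand). For SERPINA3N the window is chr6:129088142-129088441 (plus strand) and for STEAP4 chr4:27054720-27055019 (minus strand).
SPHK1: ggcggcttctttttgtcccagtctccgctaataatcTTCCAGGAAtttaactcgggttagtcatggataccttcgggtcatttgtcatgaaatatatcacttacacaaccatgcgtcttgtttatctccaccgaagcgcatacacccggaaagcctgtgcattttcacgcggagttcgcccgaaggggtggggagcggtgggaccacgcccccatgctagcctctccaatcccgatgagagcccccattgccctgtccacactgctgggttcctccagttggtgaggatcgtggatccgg
SERPINA3N: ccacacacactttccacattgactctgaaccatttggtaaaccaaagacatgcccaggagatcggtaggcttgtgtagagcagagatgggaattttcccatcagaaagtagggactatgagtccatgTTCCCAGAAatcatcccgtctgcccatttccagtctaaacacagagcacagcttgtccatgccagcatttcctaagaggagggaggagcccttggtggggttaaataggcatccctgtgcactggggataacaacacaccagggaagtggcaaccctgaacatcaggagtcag
STEAP4: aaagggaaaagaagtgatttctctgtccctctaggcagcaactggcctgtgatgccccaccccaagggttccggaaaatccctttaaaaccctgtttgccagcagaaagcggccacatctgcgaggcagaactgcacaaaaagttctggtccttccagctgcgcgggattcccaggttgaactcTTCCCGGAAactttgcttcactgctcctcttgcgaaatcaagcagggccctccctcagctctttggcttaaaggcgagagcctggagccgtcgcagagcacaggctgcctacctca
Relative to the start, the match begins at base −214 in SPHK1, at base −123 in SERPINA3N and at base −66 in STEAP4. The letters within the palindrome differ, with CAG between its arms in SPHK1, CCA in SERPINA3N and CCG in STEAP4.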

How the data were processed

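Stranded total RNA libraries were made from the supernatant after removal of ribosomal RNA. The authors reduced all libraries to the read number of the smallest, aligned to rn6 with STAR 2.5.4b and estimated FPKM values per group with Cuffdiff 1.3.0 and upper quartile normalization. The deposited table holds 12771 entries with 1 FPKM value for No-SCI and 1 for SCI. Its columns of fold changes, p-values and q-values are the authors' own comparison and were not used. Columns were assigned to groups by the group names in the table.

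Log2 ratios (SCI over No-SCI) were taken with no pseudocount, and a fold of at least 2 was counted as a call. Where a symbol had 2 entries (13 symbols), the one of higher mean FPKM was used, which leaves 12758 symbols. Ranks and percentiles are over these symbols in each group. The table holds no counts, no lengths and no value per library, so the value of 1 read could not be recovered from the low values and the depth is unknown. Values of 58.6% of the symbols carry more than the 6 digits of 1 estimate and may be sums over several entries, which limits comparisons of levels between genes. Motifs were searched in the RefSeq promoter table of GRCr8, from which no deposited value was read by coordinates. The members, the gene lists and the threshold were chosen with earlier results of these data known. All 40 genes and the genes of the other lists that were past the threshold, abundant or absent could be named. Some pathway genes named for their role (SPHK2, IL6ST, STAT3 and SOCS3) fall outside that rule and were chosen after their values were seen. The functions that compute ratios and calls were tested on simulated data. Python 3.11.15 with numpy 2.4.6, pandas 2.3.3 and matplotlib 3.10.9 was used. Alternatives were other scalings, pseudocounts, thresholds and filters. The value of 1 pathway gene is not reported here.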

Additional observations from a re-analysis of the deposited data

How the results depend on the processing

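Of the 33 genes, 5 (PPP1R3C, STEAP4, PTX3, FBLN5 and SRGN) crossed the fold of 2 under at least 1 alternative. None changed sign, but this is no test of the signs. Pseudocounts, subtraction of 1 from every value, thresholds and filters cannot change a sign. The scalings raised every log2 ratio by at most 0.12, and OSMR, the lower gene nearest to 0, had −0.18. Of 282 values of single genes under the alternatives 82 moved by more than 0.1 on the log2 scale. Centring the median of all symbols at 0 raises every log2 ratio by 0.12 and gave medians of −0.73 for the homeostatic and 0.13 for the reactive genes, and an equal upper quartile gave −0.747 and 0.118. At a fold of 1.3, 17 homeostatic genes were lower, with 6 reactive genes higher and 5 lower (35.7% of all symbols were lower and 24.6% higher). At a fold of 1.5, 13 homeostatic genes were lower, and 5 reactive genes were lower and 3 higher (26.3% of all symbols were lower and 16.9% higher). At a fold of 3, 3 homeostatic genes were lower, and 2 reactive genes were lower and 0 higher (3.27% of all symbols were lower and 3.17% higher). The median of the reactive genes, close to 0, was −0.18 with a mean of at least 5 FPKM, which leaves out STEAP4 and PTX3, and as a mean in place of a median it was −0.18. Without values of over 6 digits, which leaves 13 homeostatic and 7 reactive genes, it was −0.85. The reactive minus the homeostatic median, 0.87, was then 0.67, 0.72 and 0.0015, so the difference between the groups rests on genes with such values. The reactive genes higher by 2-fold numbered 1 of 13 with a pseudocount of 1 and 1 of 11 with a mean of at least 5 FPKM. Without values of over 6 digits they numbered 0 of 7. Of all symbols 6.38%, 7.61% and 7.0% were higher in these settings. The number was 3 of 13 with the median centred, with an equal upper quartile and with 1 subtracted from every value. There 9.53%, 9.34% and 10.4% of all symbols were higher. The causes were not tested beyond the genes that each filter leaves out. No paired analysis was possible because the table gives a single value per group and the groups share no replicate number, and therefore no library could be left out.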

Other observations

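Partners of single homeostatic genes were also in the table. PPP1R3C acts on glycogen, and of 9 glycogen genes, PPP1R3C included, 8 are listed and all 8 were lower after SCI. Their median log2 ratio was −1.05, and 5 (62.5%) were lower by 2-fold, beside 12.1% of all symbols. Among these, PYGB, the brain isoform of glycogen phosphorylase, had 6.65 FPKM with laminectomy alone and 2.31 FPKM after SCI, and PYGM, the muscle isoform, had 52.5 FPKM in No-SCI against 18.3 FPKM in SCI. Of 10 listed skeletal muscle genes 8 were lower by 2-fold, and their part in the value of PYGM was not tested. GPR37L1 and NTSR2 have 4 listed relatives or ligands, GPR37, PSAP, SORT1 and NTS, and all were lower by 2-fold, as were 12.1% of all symbols. NTS had low values, 3.40 FPKM in No-SCI and 1.53 FPKM in SCI. GPR37, the receptor most like GPR37L1, had 12.5 FPKM in No-SCI and 3.20 FPKM in the SCI group, and PSAP, which encodes prosaposin, had 586 FPKM with laminectomy alone and 274 FPKM after SCI.

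DIO2, which activates thyroid hormone in astrocytes, has no entry, but THRB, a thyroid hormone receptor, had 59.4 FPKM in No-SCI against 22.4 FPKM in SCI. The metallothionein MT2A was higher after SCI, with 1524 FPKM in No-SCI and 1957 FPKM in the SCI group, whereas MT3 was lower. The ratio of MT3 to MT2A was 1.56 in No-SCI and 0.856 after SCI. FGF1, a ligand of FGFR3, had 21.1 FPKM with laminectomy alone and 48.1 FPKM after SCI, and FGFR1 had 23.0 FPKM in No-SCI against 21.9 FPKM in SCI. FGFR1 was named after its value was seen.

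LCN2 and GPR37L1 have nearly the same pair of values, with a ratio of 0.9993 in No-SCI and 1.0004 in SCI. No other symbol of the table comes within 0.1% of either gene in both groups, and the same holds of each of the other 31 listed genes, which have no such neighbour.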
